A study of Homo sapiens with 4 samples.

Results

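The genes described here are the enzymes that add or remove methyl groups on lysines of histones, with the subunits that build the H3K4 methyltransferase complexes. The 40 members were listed by name. A member was read from probe sets annotated to exactly 1 gene, and 39 of the 40 had such a probe set, out of 19775 genes in all; ASH1L had none and has no value here. RNA was measured in AGS cells, a human gastric adenocarcinoma line, on 2 arrays of PRMT6-knockout cells and 2 arrays of control cells with wild-type PRMT6. Per the labels' protocols, a lentiviral Cas9 vector (lentiCRISPR v2) carried the guide, puromycin selected infected cells, and knockout clones came from limiting dilution. The labels do not say which clone each knockout array holds, what vector the control cells carried or whether they were cloned, nor whether the arrays of a group came from separate cultures, so p-values measure only the spread between these arrays, which may be technical. The guide directed at PRMT6, on chromosome 1, is shown because it defines the knockout:
PRMT6 guide: gacggtactggacgtgggcg

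Lysine 4 of histone H3 is methylated by KMT2A to KMT2D, SETD1A and SETD1B, which work inside complexes built on WDR5, RBBP5, ASH2L and DPY30. KMT2E carries the family name, but is not an established H3K4 methyltransferase. Trimethylated H3K4 marks active promoters and monomethylated H3K4 marks enhancers. PRMT6 places an asymmetric dimethyl mark on the neighbouring arginine, H3R2, and this mark and H3K4 trimethylation hinder each other on the same histone tail. Methyl groups on histone lysines are removed by flavin-dependent demethylases (KDM1A and KDM1B) and by JmjC enzymes, which need iron and 2-oxoglutarate. These data are transcript levels, and neither the histone marks nor the proteins were measured.

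PRMT6 itself had log2 intensities of 7.79 and 7.63 on the knockout arrays, against 8.03 and 8.11 on the control arrays. The difference, knockout minus control, was -0.36 (SE 0.09, adjusted p = 0.043 in limma), and it was not called without any single array (adjusted p 0.10 to 0.23). The epithelial markers fitted the label of a gut epithelial line in EPCAM, KRT8, KRT18 and KRT19, which lay at 11.76 or above on all arrays, whereas the gastric claudin CLDN18 lay at 4.42 to 4.75, below the median gene's mean level of 5.97. Of 8 epithelial markers CEACAM6, KRT8 and KRT19 were called higher and CLDN4 lower, and their mean was 10.17 and 10.21 on the knockout arrays, against 9.97 and 9.99 on the control arrays. Of 8 markers of leukocytes, endothelium and fibroblasts, 7 were measured and lay between 2.63 and 6.83, with means of 5.02 and 4.93 on the knockout arrays, against 4.77 and 4.91 on the control arrays. ACTA2, a smooth muscle actin, was the only one of these 7 to pass the test (0.69, adjusted p = 0.010), and was not called without any single array. The mean of ACTA2's probe sets was not called (0.18, adjusted p = 0.20 in limma). The part of these markers in the results was not tested. In such bulk samples fewer cells of a type and less RNA per cell cannot be told apart.

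Transcripts of this machinery moved in both directions in the knockout cells. Of the 39 measured members, 7 rose (WDR5, SUV39H1, KDM2B, KDM1A, KDM4B, HCFC1 and DPY30) and 10 fell (KDM7A, JMJD6, KDM1B, KDM6B, KMT2C, KDM2A, SETD7, KDM5B, KDM3A and KMT2A) at an adjusted p below 0.05 in limma, a share of 43.6%. Over all genes tested 24.0% were called, 12.4% higher and 11.5% lower. Most members are read at a high level, however: 37 of the 39 lay above the median gene, and 43.2% of these were called, against 40.9% of all genes above the median gene. The share called among the members is therefore close to that of genes of like level. The median difference of the members was 0.01, against -0.01 over all genes, and the differences ran from -1.44 (KDM7A) to 0.68 (WDR5). The groups were fully separated, array by array, for 16 members that lay higher and 14 that lay lower, and over all genes for 58.2%. Above the median level the groups were separated for 75.7% of members, against 79.3% of all genes.

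The direction of these counts depends on the scaling. The deposited values were quantile-normalized, which makes every difference relative to the other transcripts. When the arrays were instead set to equal means of 10 reference genes, the median of all genes moved from -0.01 to -0.26, and 1 member was called higher (WDR5) and 16 lower, against 7 and 10 on the deposited scale. Over all genes that scaling gave 1233 higher and 7280 lower calls, against 2459 and 2281. Of those 10 reference genes 5 themselves passed the test as higher on the deposited scale. No called member changed sign under that scaling, and KDM4C (-0.32, adjusted p = 0.028), KDM5A, KDM5C, KMT2D, KMT2E and SETD1B were newly called lower.

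**Figure D1:**
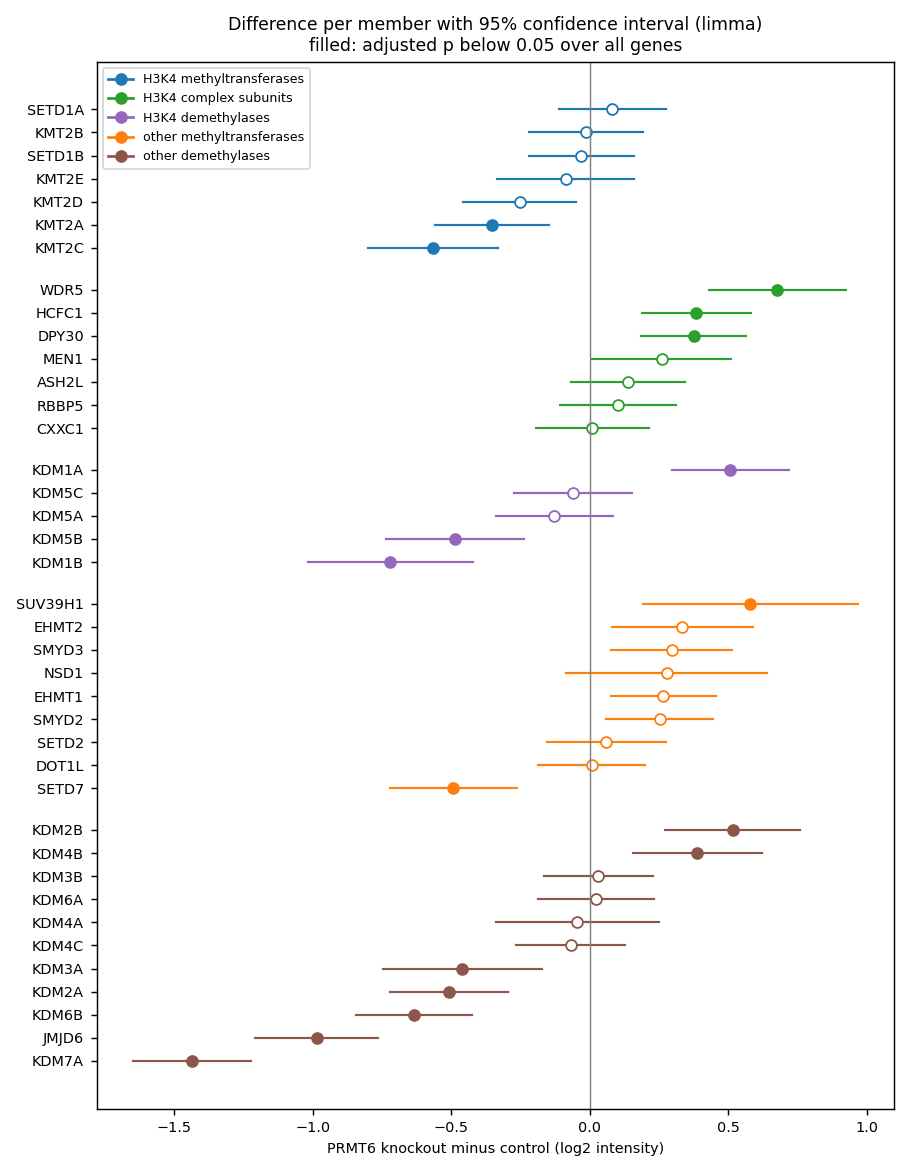
Difference between knockout and control (x axis, log2 intensity) for each of the 39 measured members, in 5 groups by role, with 95% confidence intervals from limma; filled points passed the test over all genes. KDM7A (-1.44) and JMJD6 (-0.99) lie farthest to the left and WDR5 (0.68) farthest to the right.

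Among the 7 members of the KMT2 and SETD1 family 28.6% were called, against 24.0% of all genes and 40.9% of those above the median level. Of the 7 members 2 fell, 0 rose and 5 did not pass the test. Under reference gene scaling 5 were called lower, where 7280 of all 19775 genes were and the median of all genes was -0.26. The 5 were KMT2A, KMT2C, KMT2D (-0.50, adjusted p = 0.0075 in limma), KMT2E (-0.34, 0.039) and SETD1B (-0.28, 0.037). With the mean of probe sets 0 were called. KMT2C (also known as MLL3), an enhancer H3K4 monomethyltransferase, had log2 intensities of 8.24 and 8.06 on the knockout arrays, against 8.72 and 8.71 on the control arrays. Both knockout arrays lay below both control arrays, and the difference was -0.57 (SE 0.09), 1.48-fold lower, with an adjusted p of 0.011 in limma. KMT2A (MLL1), the enzyme disrupted by translocations in acute leukaemia, had 7.04 and 6.95 in knockout cells, against 7.39 and 7.31 in control cells (difference -0.35, SE 0.08, adjusted p = 0.033). The groups did not overlap there either. KMT2D (MLL4), the enhancer enzyme most like KMT2C, gave -0.25 (95% confidence interval -0.46 to -0.05, adjusted p = 0.083), and its groups did not overlap. KMT2B, KMT2E, SETD1A and SETD1B gave differences between -0.09 and 0.08, none of which passed the test. SETD1B, a writer of H3K4 trimethylation, was the most tightly measured of them, at 9.40 and 9.43 in knockout cells and 9.44 and 9.45 in control cells (-0.03, 95% confidence interval -0.22 to 0.16), the knockout arrays just below the control arrays. The calls of KMT2A and KMT2C were not made without any single array (adjusted p 0.086 to 0.20 for KMT2A and 0.065 to 0.099 for KMT2C).

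Of the 7 subunits of the KMT2 and SETD1 complexes, 3 passed the test as higher and 0 as lower (42.9%, against 40.9% of all genes above the median level). All 7 differences were above 0, with a median of 0.26, and they were not tested against those of the enzymes. Under reference gene scaling only WDR5, DPY30, HCFC1 and MEN1 kept a positive sign, and ASH2L, RBBP5 and CXXC1 turned negative without passing the test. WDR5, the WD-repeat protein that holds the KMT2 complexes together and reads the H3 tail at R2, had log2 intensities of 8.51 and 8.59 on the knockout arrays, against 7.97 and 7.78 on the control arrays. The lower knockout array stood above the higher control array by more than either group's spread, and the transcript rose by 0.68 (SE 0.10), 1.60-fold (adjusted p = 0.0080, limma). DPY30, the small dimer that docks to ASH2L, had 10.72 and 10.76 in knockout cells and 10.37 and 10.37 in control cells (difference 0.37, SE 0.08, adjusted p = 0.021). HCFC1, a host cell factor of the SETD1 and KMT2A complexes, had 7.72 and 7.73 in knockout cells, against 7.38 and 7.31 in control cells (0.38, SE 0.08, adjusted p = 0.021). In both genes the arrays of a group lay closer to each other than to any array of the other group. MEN1 (menin, which tethers KMT2A and KMT2B) gave 0.26 with an adjusted p of 0.13, ASH2L 0.14, RBBP5 0.10 and CXXC1, the CpG-binding subunit of the SETD1 complexes, 0.01. The WDR5 call held when either control array was dropped (adjusted p = 0.031 and 0.046) and was lost when either knockout array was (0.081 and 0.10). DPY30 and HCFC1 were not called without any single array (adjusted p 0.074 to 0.15 and 0.061 to 0.15). Under reference gene scaling WDR5 kept its call (0.43, adjusted p = 0.020) while DPY30 (0.12, 0.23) and HCFC1 (0.13, 0.20) did not. With gene-specific probe sets 0 of the 4 subunits that had one were called.

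**Figure D2:**
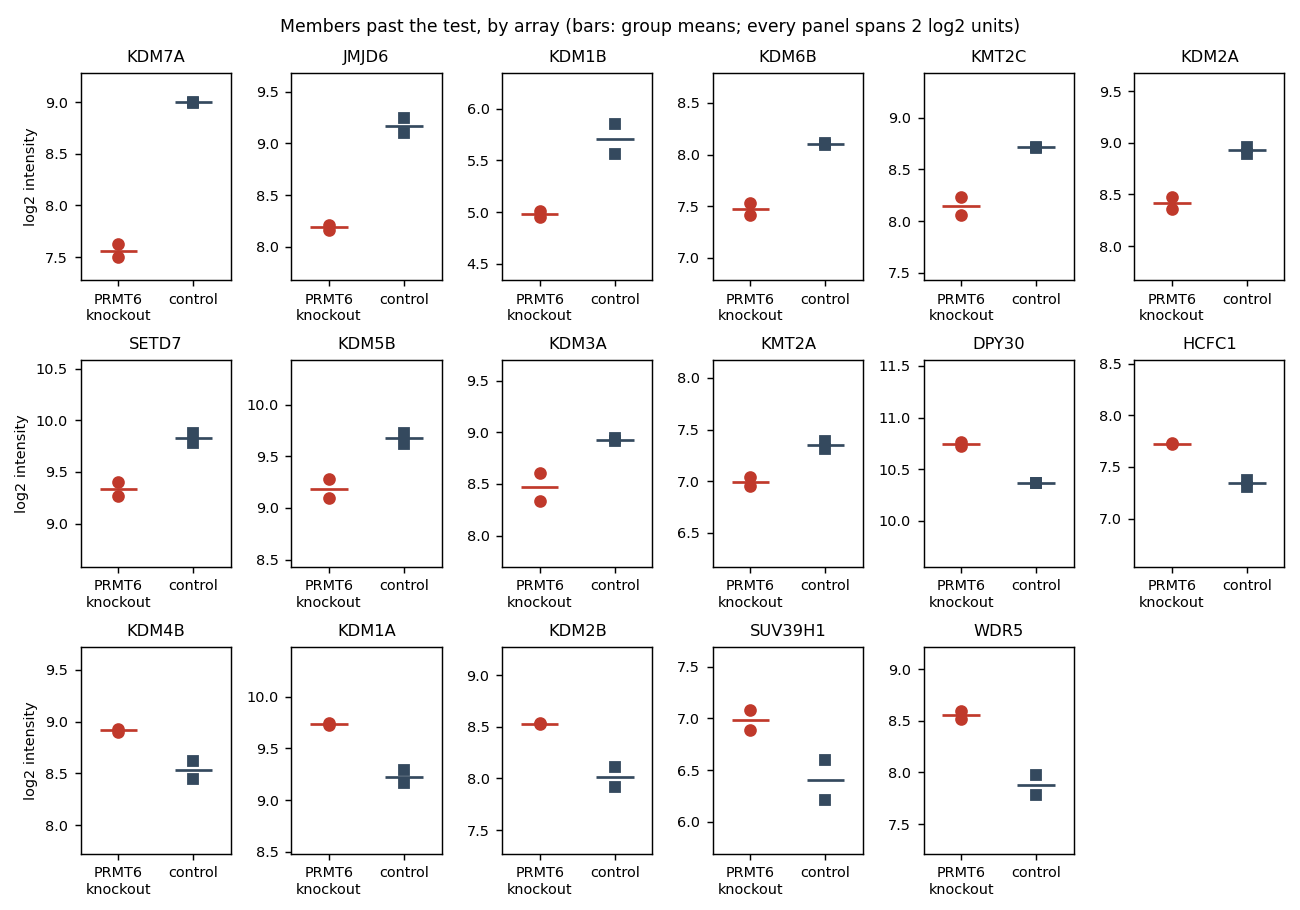
Log2 intensity (y axis) of the 17 members past the test on each array, PRMT6 knockout left (circles) and control right (squares), with a bar at each group mean; every panel spans the same range of log2 units. In each panel the knockout arrays lie wholly below (first 10 panels) or wholly above (last 7) the control arrays.

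Of the 5 H3K4 demethylases 60% were called, against 24.0% of all genes and 40.9% of those above the median level. KDM1A rose, KDM1B and KDM5B fell, and KDM5A and KDM5C did not pass the test. KDM1A (LSD1), the flavin-dependent demethylase of the CoREST complex, had 9.72 and 9.74 in knockout cells, against 9.29 and 9.17 in control cells. Its knockout arrays differed by less than its control arrays did, and the difference was 0.51 (SE 0.08, 1.42-fold, adjusted p = 0.012). Its paralogue KDM1B (LSD2), known for setting maternal imprints in mouse oocytes, had 4.96 and 5.01 in knockout cells and 5.56 and 5.85 in control cells. That is a fall of 0.72 (SE 0.12, adjusted p = 0.011) without overlap, at levels below the median gene; detection calls were not used, so it is not known whether these levels exceeded background. Its other probe set gave -0.21, and the mean of its probe sets was not called (-0.47, adjusted p = 0.086). KDM5B (JARID1B), a JmjC demethylase of trimethylated H3K4, had 9.28 and 9.09 in knockout cells, against 9.73 and 9.62 in control cells (-0.49, SE 0.10, adjusted p = 0.022). KDM5A gave -0.13 and KDM5C -0.06, with 95% confidence intervals of -0.34 to 0.08 and -0.27 to 0.15. KDM1B lost its call when either knockout array was dropped (adjusted p = 0.12 and 0.11). KDM1A kept its call only when control 1 was the array dropped (0.040, against 0.060 to 0.11 for the other arrays), and KDM5B was not called after dropping any 1 array (0.079 to 0.15). Under reference gene scaling KDM1A gave 0.26 (adjusted p = 0.054 in limma). KDM5A (-0.38, 0.019) and KDM5C (-0.31, 0.034) were called lower there with KDM1B and KDM5B, so that 4 of the 5 were lower and 0 higher. That scaling called 7280 of all 19775 genes lower and 1233 higher.

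The promoter window of KDM1A from RefSeq, 250 bases before to 50 bases after the annotated start, is shown as an example of a member that rose and has a single annotated window, with matches to the GC box GGGCGG, on either strand, in capitals:
KDM1A, GRCh38.p14, chr1:23019218-23019517, plus strand: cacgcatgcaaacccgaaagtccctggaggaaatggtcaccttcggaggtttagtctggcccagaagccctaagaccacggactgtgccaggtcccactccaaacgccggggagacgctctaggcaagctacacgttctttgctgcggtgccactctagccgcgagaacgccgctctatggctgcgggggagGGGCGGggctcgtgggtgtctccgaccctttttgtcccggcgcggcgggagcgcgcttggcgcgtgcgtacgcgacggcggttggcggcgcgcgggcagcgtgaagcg

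The 2 largest changes among the members were falls of JmjC proteins outside the H3K4 group, KDM7A and JMJD6. KDM7A (KIAA1718), which demethylates dimethylated H3K9 and H3K27, had log2 intensities of 7.63 and 7.50 on the knockout arrays, against 9.002 and 8.990 on the control arrays. The gap between the groups was far wider than the distance between the arrays of either group. The transcript was 2.70-fold lower (difference -1.44, SE 0.08, 95% confidence interval -1.65 to -1.22, adjusted p = 0.00082 in limma), and it ranked 205 from the lowest difference of the 19775 genes. It was the only member called without each single array in turn (adjusted p 0.022 to 0.035). JMJD6, a 2-oxoglutarate-dependent lysyl hydroxylase that has also been reported as an arginine demethylase of histones, had 8.16 and 8.21 in knockout cells, against 9.24 and 9.10 in control cells. The arrays fell into clearly separate pairs, and the transcript was 1.98-fold lower (-0.99, SE 0.09, adjusted p = 0.0023). KDM6B (JMJD3), an inducible demethylase of trimethylated H3K27, had 7.53 and 7.41 in knockout cells and 8.09 and 8.12 in control cells (-0.63, SE 0.08, adjusted p = 0.0060). KDM6A (UTX), which acts on the same mark, gave 0.02 with a 95% confidence interval of -0.19 to 0.23. Dropping either control array left JMJD6 and KDM6B called, while dropping knockout 1 (adjusted p = 0.055 for JMJD6 and 0.063 for KDM6B) or knockout 2 (0.056 and 0.080) did not.

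The promoter windows of KDM7A, the member with the largest fall, and of KDM6B, the first of its 2 annotated windows, are shown in the same way, with GC boxes in capitals:
KDM7A, GRCh38.p14, chr7:140176934-140177233, minus strand: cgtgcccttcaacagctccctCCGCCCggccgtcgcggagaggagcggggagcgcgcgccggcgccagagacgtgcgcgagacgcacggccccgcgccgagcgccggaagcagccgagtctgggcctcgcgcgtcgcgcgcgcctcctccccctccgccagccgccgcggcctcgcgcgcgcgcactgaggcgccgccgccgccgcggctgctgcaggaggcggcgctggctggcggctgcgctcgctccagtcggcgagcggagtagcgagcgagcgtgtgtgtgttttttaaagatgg
KDM6B, GRCh38.p14, chr17:7833967-7834266, plus strand: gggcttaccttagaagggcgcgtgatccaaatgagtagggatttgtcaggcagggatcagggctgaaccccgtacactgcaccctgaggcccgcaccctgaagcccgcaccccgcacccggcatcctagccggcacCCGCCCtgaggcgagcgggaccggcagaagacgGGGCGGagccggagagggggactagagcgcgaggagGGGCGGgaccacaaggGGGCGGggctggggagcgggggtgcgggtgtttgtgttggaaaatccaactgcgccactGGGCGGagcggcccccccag

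The KDM7A window holds 1 GC box and 56 CpG dinucleotides, the KDM6B window 5 and 24, and the KDM1A window 1 and 36. RefSeq windows were matched for 34 of the 40 members, 50 windows in all, with a median of 29 CpG dinucleotides, against 14 over all 35116 windows. The GC box was found in 74% of the members' windows, against 45.0% of all windows of the same length. GGGCGG itself holds a CpG, as does the E-box below, and windows of like CpG content were not compared. The letters of 4 further elements, of stress-response and growth-related factors, were looked for on both strands. The ATF4 composite element TGATGNAA was in 0 of the members' 50 windows, against 3.62% of all windows, and the cAMP response element TGACGTCA in 0, against 1.85%. The heat shock letters GAANNTTC were in the windows of 4 members (KDM6B, SETD1A, SUV39H1 and WDR5), 8% of member windows, against 6.77% of all windows. The E-box CACGTG was in 14%, against 7.26%, and the windows with it belonged to 7 members. Among the 34 members with a window 9 fell and 5 rose. Of the 4 with GAANNTTC 1 fell and 2 rose, and of the 7 with CACGTG 0 fell and 2 rose (WDR5 and KDM4B). A link of these letters to direction was not tested. Each GAANNTTC or CACGTG match is a description of letters in these windows, and says nothing of factors bound there.

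Among the other demethylases, KDM2A, which demethylates H3K36 and binds CpG islands through a CXXC domain, had 8.48 and 8.36 in knockout cells, against 8.90 and 8.96 in control cells (-0.51, SE 0.08, adjusted p = 0.012). Its paralogue KDM2B, which brings a variant Polycomb complex to CpG islands, moved the opposite way, with 8.54 and 8.52 in knockout cells and 8.11 and 7.92 in control cells (0.52, SE 0.10, adjusted p = 0.017). Neither gene's groups overlapped. KDM3A (JMJD1A), an H3K9 demethylase known as hypoxia-inducible, had 8.61 and 8.33 in knockout cells, against 8.91 and 8.94 in control cells (-0.46, SE 0.11, adjusted p = 0.039). Its other probe set gave -0.05, and the mean of both was not called (-0.25, adjusted p = 0.14). KDM4B, which acts on trimethylated H3K9, had 8.93 and 8.90 in knockout cells, against 8.62 and 8.44 in control cells (0.39, SE 0.09, adjusted p = 0.035). The knockout arrays of KDM3A lay farther apart than those of KDM4B, whose spread was mainly between the control arrays. KDM3B (0.03), KDM4A (-0.04) and KDM4C (-0.07) did not pass the test. KDM2A, KDM3A and KDM4B were not called without any single array (adjusted p 0.054 to 0.11, 0.072 to 0.18 and 0.051 to 0.20), while KDM2B was called only when control 1 was dropped (0.037, against 0.066 to 0.14 for the other arrays). Under reference gene scaling KDM2B (0.26) and KDM4B (0.14) lost their calls, with adjusted p-values of 0.065 and 0.24.

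Of the 9 other methyltransferases measured 22.2% were called, against 24.0% of all genes and 40.9% of those above the median level. SUV39H1 rose, SETD7 fell and 7 did not pass the test. SUV39H1, which trimethylates H3K9 in pericentric heterochromatin, had 6.88 and 7.08 in knockout cells, against 6.60 and 6.21 in control cells. The groups did not overlap but the control arrays stood well apart, and the difference of 0.58 (SE 0.15) passed the test narrowly (adjusted p = 0.049). SETD7, a monomethyltransferase of H3K4 and of many non-histone proteins, had 9.26 and 9.41 in knockout cells and 9.87 and 9.78 in control cells (-0.49, SE 0.09, adjusted p = 0.016). EHMT2 (G9a) and EHMT1 (GLP), which together dimethylate H3K9, gave 0.33 and 0.27, and the cytosolic lysine methyltransferases SMYD3 and SMYD2 gave 0.30 and 0.25. All 4 had knockout arrays above control arrays and adjusted p-values of 0.060 to 0.072, so none was called; their signs stayed positive under reference gene scaling, at 0.00 to 0.08, while the gene-specific probe set of SMYD2 gave -0.20. NSD1, an H3K36 dimethyltransferase, gave 0.28 (95% confidence interval -0.08 to 0.64), SETD2, which trimethylates H3K36, 0.06, and DOT1L, the H3K79 methyltransferase, 0.01. SUV39H1 was called only when control 1 was dropped (adjusted p = 0.044, against 0.14 to 0.28 for the other arrays), and SETD7 was not called after dropping any 1 array (0.065 to 0.13). Under reference gene scaling SUV39H1 gave 0.33 (adjusted p = 0.11).

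Set against the rest, the H3K4 machinery had a share of calls near that of the other members on the deposited scale. Of its 19 members 4 rose and 4 fell (42.1%), and of the 20 others 3 rose and 6 fell (45.0%). The split depends on the setting. Reference gene scaling gave 1 higher and 9 lower of the 19, and 0 higher and 7 lower of the 20. Over all 19775 genes it gave 1233 higher and 7280 lower. The mean of probe sets gave 3 higher and 0 lower of the 19, and 4 and 4 of the 20, against 2415 and 1986 over all genes. Gene-specific probe sets gave 0 higher and 3 lower of the 15 that had one, and 1 and 5 of 14. Over the 16788 genes with one they gave 1616 and 1592. The medians were -0.01 for the H3K4 machinery and 0.03 for the rest, against -0.01 over all genes. Counting SMYD2, SMYD3, SETD7 and KDM2B as H3K4 genes gave 5 higher and 5 lower of 23, against 2 and 5 of 16. Grouped by activity instead, 10 of 16 demethylases were called (62.5%), 3 higher and 7 lower. Of 16 methyltransferases 4 were called (25%), 1 higher and 3 lower. Over all genes 24.0% were called, and 40.9% of those above the median level. JMJD6 was counted as a demethylase and KMT2E as a methyltransferase. These counts describe the lists and were not tested against each other.

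The other probe sets of a member check its brightest. There were 117 probe sets for the 39 members, several for 29 members and a single probe set for 10, among them KDM1A, KDM2B, DPY30 and SUV39H1, which therefore have no such check. Fitted over all 54613 probe sets, where 13.1% passed the test, 11 of the 39 brightest probe sets did. That 13.1% includes dim probe sets, whereas 37 of the 39 lay above the median gene, and no share at like level was taken. All 5 probe sets of KDM6B fell, by 0.63 to 0.93. Both probe sets of KDM7A fell (-1.44 and -1.07), as did 3 of the 4 of JMJD6 (-0.99 to -1.04), and the remaining JMJD6 probe set was dim and gave -0.13. The second probe set of WDR5 gave 0.51 (adjusted p = 0.081). KDM4B had 8 probe sets with differences above 0 (0.10 to 0.44), although none passed the test over all probe sets. The mean of KDM4B's probe sets (0.27, adjusted p = 0.051) and its gene-specific probe set (0.18, adjusted p = 0.31) were not called. HCFC1 is less well backed, since its other probe sets gave 0.11 and 0.02, the last of them its gene-specific one, and the mean of its probe sets was not called (0.17, adjusted p = 0.18). KDM2A's other probe sets gave -0.07 and -0.14, and their mean with the brightest -0.24 (adjusted p = 0.091). Of the 42 further probe sets of the called members, 36 had the sign of the brightest, and 7 of these passed the test. The brightest probe sets of all 7 risen members carry a mark for shared sequence. With the brightest probe set without that mark, WDR5 (0.51, adjusted p = 0.054 in limma), KDM4B and HCFC1 were not called. KDM1A, KDM2B, DPY30 and SUV39H1 had no such probe set. The 8 called members that kept their calls there had all fallen. Their brightest probe sets carry no such mark, so for these 8 the same probe sets were read again. Their kept calls are therefore no further check, and the contrast with the risen members follows from the marks.

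The probe sets of KMT2A, KMT2C, KDM5B and KDM5A were less uniform. KMT2A had 11 probe sets, with differences from -0.35 to 0.19. Only 6 of them had a negative sign and none passed the test, and the mean of its probe sets gave -0.02 (adjusted p = 0.94), so its fall rests on the brightest probe set. All 6 probe sets of KMT2C were negative (-0.57 to -0.01), with the brightest alone past the test, and their mean gave -0.33 (adjusted p = 0.12). The brightest 3 of KDM5B's 5 probe sets lay between -0.49 and -0.26, and a dim probe set, the brightest without a mark for shared sequence, gave 0.36 (mean level 4.39, adjusted p = 0.12 over all probe sets); the mean of KDM5B's probe sets was not called (-0.20, adjusted p = 0.12). The brightest probe set of KDM5A gave -0.13 and its other 4 gave 0.18 to 0.32, none past the test. NSD1 and KDM6A had dimmer probe sets that rose while the brightest did not pass: NSD1 by 1.05 and 0.76, and KDM6A by 1.38. That KDM6A probe set read 4.93 and 4.81 in knockout cells, against 3.52 and 3.45 in control cells. The mean of probe sets was called higher for NSD1 (0.49, adjusted p = 0.011 in limma) and for KDM6A (0.42, 0.015). A dim probe set of KDM4C fell by 0.90. The transcript parts that these probe sets read were not analysed here.

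**Figure D3:**
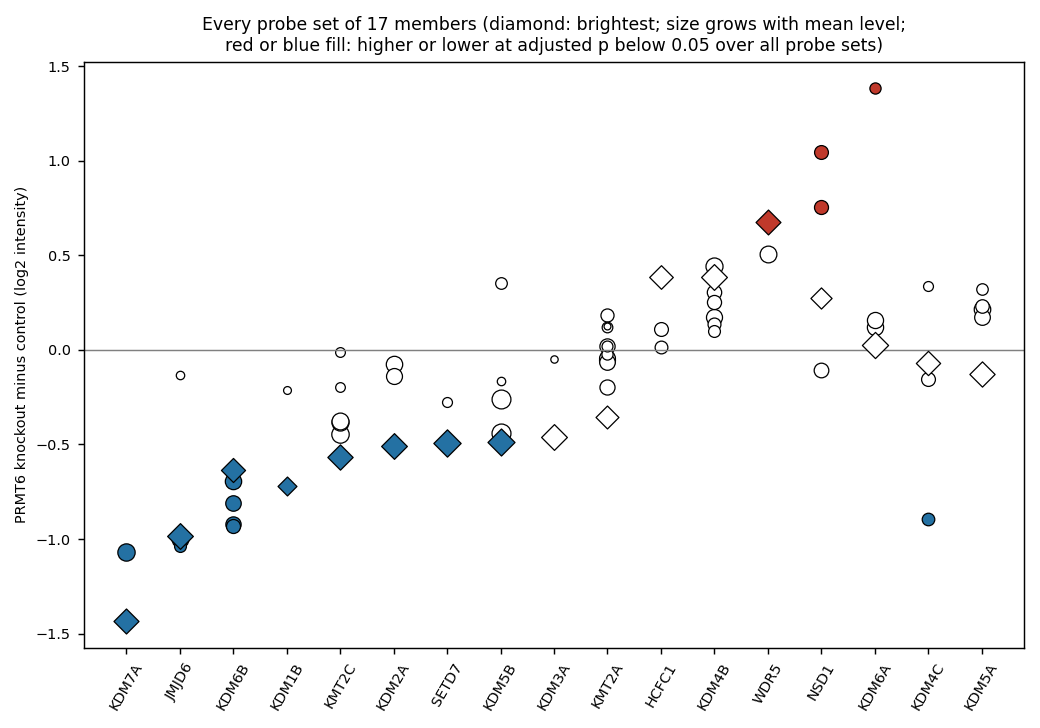
Difference between knockout and control (y axis, log2 intensity) of every probe set of 17 members with several probe sets; diamonds mark the brightest, symbol size grows with mean level, and filled symbols passed the test over all probe sets (red higher, blue lower). The 5 probe sets of KDM6B lie together between -0.93 and -0.63, while those of KMT2A spread on both sides of 0.

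Further genes of the same pathways were looked at as whole lists, which, like the members, were drawn up with earlier results of these data known. Between 25.9% and 50% of a list was called, against 24.0% of all genes and 40.9% of genes above the median level. Of 27 other histone lysine methyltransferases and demethylases, 3 rose and 4 fell (25.9%), with a median of -0.04. SUV39H2, the paralogue of SUV39H1, rose by 0.80 (SE 0.09, adjusted p = 0.0036) and SETMAR, a SET domain fused to a transposase, rose by 0.78 (SE 0.08). KMT5A, the H4K20 monomethyltransferase, fell by 0.46 (SE 0.09) and MECOM, a PR-domain transcription factor, fell by 0.44 (SE 0.10). SETMAR and KMT5A were not called by their gene-specific probe sets (0.34 and -0.20), nor MECOM by the mean of its probe sets (-0.24). Of 14 genes listed as further subunits or partners of the KMT2 and SETD1 complexes, 2 rose and 4 fell, among them INTS6, an Integrator subunit (-0.80, SE 0.075), and BOD1, a paralogue of the SETD1 partner BOD1L1 (-0.75, SE 0.09). RBBP7, a histone chaperone of several complexes, rose by 0.40 (SE 0.07) and HCFC2, the paralogue of HCFC1, by 0.37 (SE 0.08), although the mean of HCFC2's probe sets gave 0.07.

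Of 21 measured genes listed as CoREST partners of KDM1A or readers of H3K4 methylation, 4 rose and 2 fell. The 2 that fell were PHF21A (BHC80), the CoREST subunit that reads unmethylated H3K4 (-0.68, SE 0.09), and the corepressor RCOR3 (-0.47, SE 0.09). The reader ING2 rose by 0.50 (SE 0.08). UHRF1, which was listed but is not an established reader of H3K4 methylation, rose by 1.19 (SE 0.10). Of 12 measured enzymes of the methyl donor and of 2-oxoglutarate, 4 rose and 2 fell. IDH1, the cytosolic isocitrate dehydrogenase that makes 2-oxoglutarate, fell by 0.62 (SE 0.08), whereas the mitochondrial IDH3A and IDH3B rose by 0.55 (SE 0.08) and 0.50 (SE 0.08). AHCY, which clears the methylation by-product S-adenosylhomocysteine, rose by 0.54 (SE 0.08). The gene-specific probe sets of PHF21A (-0.22) and IDH3A (0.10) and the mean of RCOR3's probe sets (-0.15) were not called. Adjusted p-values in limma of the 16 called genes named from these lists were at most 0.030. None of the 16 was called when either knockout array was dropped (adjusted p 0.052 to 0.20). RBBP7, HCFC2, ING2 and IDH3B also lost their calls under reference gene scaling (adjusted p 0.054 to 0.27).

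**Figure D4:**
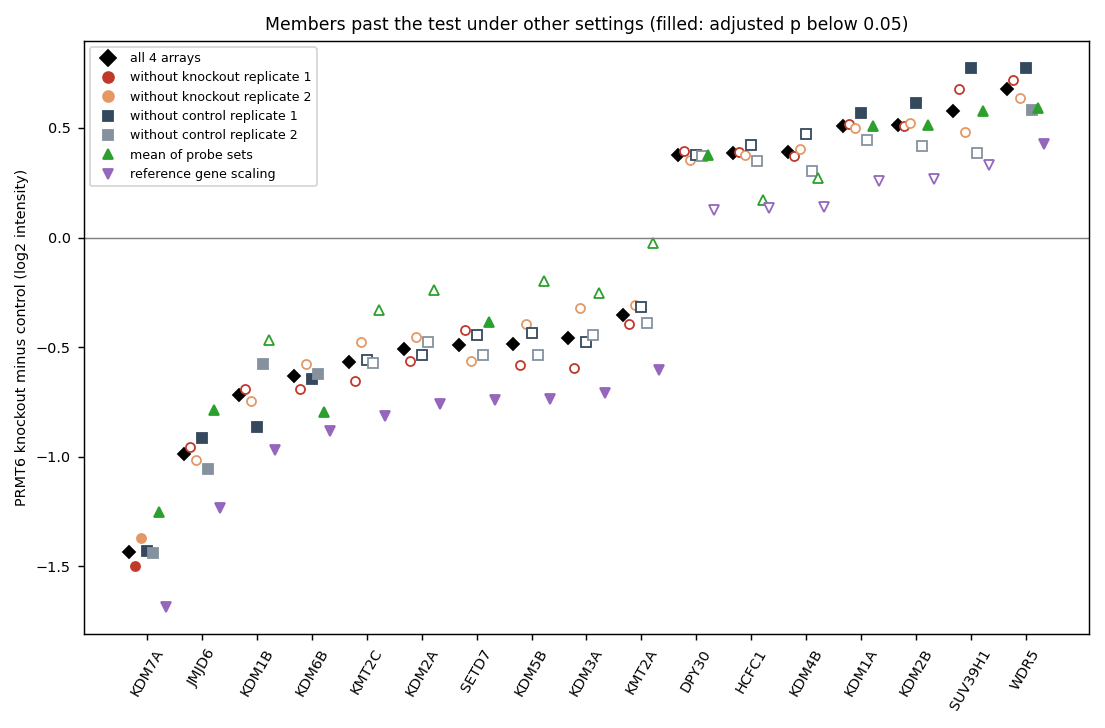
Difference between knockout and control (y axis, log2 intensity) of the 17 called members with all 4 arrays, with single arrays left out, with each gene's probe sets averaged and with reference gene scaling; filled symbols passed the test. KDM7A is filled throughout, and reference gene scaling shifts all members down by the same amount.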

How the data were processed

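The authors deposited 1 table of log2 intensities for 54613 probe sets on 4 arrays; RMA and the affy package are named, with no version, in the submitters' processing notes. RMA corrects background, quantile-normalizes and summarizes probe sets, so differences are relative to other transcripts and dim ones are compressed. That the values are log2 follows from their range, 1.64 to 14.16. Detection calls were not used. Precision is limited by having 2 arrays per group.

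Probe sets with 1 gene symbol (41091) were named from the platform annotation and updated by Entrez number to RefSeq, assembly GRCh38.p14. Each of 19775 genes was represented by its brightest probe set. The test of knockout against control was limma's moderated test (lmFit, eBayes; limma 3.58.1, R 4.3.3) on all 4 arrays without covariates, with Benjamini-Hochberg adjustment over all genes, called at an adjusted p below 0.05. The same fit was run on all probe sets. The call rule was tested on simulated data whose planted changes were larger than those of most called members. That test cannot speak for calls of smaller changes. Named genes were PRMT6, all measured members, and up to 4 called genes with the largest change per further list; others named are markers, or were chosen after their values were seen. Members and lists were chosen with earlier results of these data known. Alternatives changed the probe set per gene, the filter, the prior, the scaling, the arrays and the block.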

Additional observations from a re-analysis of the deposited data

How the results depend on the processing

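With 2 arrays a group, the counts rest on all 4 arrays and on a pooled spread. With single arrays left out, 154 to 1371 genes were called higher and 354 to 1258 lower; among the members 0 to 4 were called higher and 1 to 4 lower, where with knockout 1 left out 7 were higher and 10 lower at an unadjusted p below 0.05 in limma. Of probe sets, 0 were called without any 1 array (9786 to 13946 at an unadjusted p below 0.05). Left-out arrays moved the median of the H3K4 machinery between -0.027 and 0.013. Without moderation 205 genes were called higher and 242 lower, and 0 members in either direction (8 higher and 10 lower unadjusted). Reference gene scaling gave 1233 and 7280 genes, 1 and 16 members, 14518 probe sets, and medians of -0.26 for the H3K4 machinery and -0.22 for the rest. Gene-specific probe sets gave 1616 genes higher, 1 member higher, and a median of -0.13 for the rest, and turned KDM5B to 0.36. That 1 member was KDM6A, and none of the members called higher by their brightest probe set kept the call. No such probe set was available for 10 members. The mean of probe sets gave 7 members higher and 4 lower, against 2415 and 1986 of all genes. Its median for the H3K4 machinery was 0.081, and that of the wider H3K4 grouping 0.0093. With only brighter genes 12 of 37 members were called higher and 10 lower, against 2998 and 2569 of all 9887 brighter genes. Deviations of same-numbered arrays from their group means had a correlation of 0.05 over genes. This value cannot show whether those arrays shared a day or culture, and the labels do not say. With the replicate number as a block, 2035 genes were called higher and 1937 lower, and 5849 probe sets. Under that block 5 members were called higher and 8 lower. The causes were not tested.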
